A study of Mus musculus with 27 samples.

Results

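The trimethyl mark on lysine 27 of histone H3 (H3K27me3) was compared between doxycycline-treated mouse embryonic fibroblasts (MEF) without Utx and the same kind of treated fibroblasts that were wild type (WT). The comparison rests on 2 of the 27 samples of the series, chosen as the pair of H3K27me3 peak lists from treated Utx-knockout (Utx-KO) and treated WT MEF, out of 8 H3K27me3 lists and 19 peak lists in all. The Utx-KO list held 4335 and the WT list 938 of the 58523 H3K27me3 peaks in the series. Peaks of the pair that overlapped by at least 1 bp were merged, which gave 4979 regions.

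All the fibroblasts were of the V19-OSKM kind, in which doxycycline (dox) switches on the reprogramming factors Oct4, Sox2, Klf4 and c-Myc, and all were grown in 2i/LIF medium with or without dox. The knockout fibroblasts were male with a null allele (Utx-/Y), while the labels of the WT fibroblasts name neither a Utx genotype nor a sex. The other lists used beside the pair came from the same fibroblasts without dox, from V6.5 embryonic stem cells (ESC, Utx+/Y or Utx-/Y) in N2B27 with 2i/LIF, and from 2 aberrant induced pluripotent (iPS) clones of Utx-KO MEF. The length of dox treatment, the number of animals or cultures, and whether a library pools several of them are not given in the sources used here.

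H3K27me3 is laid down by Polycomb repressive complex 2 and marks silent genes, above all the regulators of lineages that a cell does not follow. UTX, also called KDM6A, removes methyl groups from this residue and works within the MLL3 and MLL4 complexes, which methylate lysine 4 of H3. During reprogramming, fibroblast genes must be silenced and pluripotency genes that carried Polycomb in the fibroblast must lose it. H3K4me3, mapped in the same cells, is found at promoters that are active or held ready for activation.

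Each state had 1 library per mark, so differences between states have no replicate check and none was tested. Intervals are 95% and cover counting error over regions only, and neighbouring peaks are not independent. Values come from bulk chromatin, in which fewer cells carrying the mark and less mark per cell cannot be told apart. The score of a peak is the authors' own value and serves here mainly to order peaks within a list. Where the same cut at 100 is applied to several lists, the shares only describe those lists. Only 2.35% of the WT peaks with dox scored 100 or more, against 40.6% of the Utx-KO peaks with dox, 89.7% of the peaks in untreated WT MEF and 91.8% of those in untreated Utx-KO MEF. Read depth was unknown, so a weaker immunoprecipitation or a shallower library and a genome with less of the mark cannot be told apart in the WT list with dox.

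The states also differed in their cell type markers, read as H3K4me3 at marker genes. The fibroblast markers Col3a1, Fgf7, Twist1 and Pdgfrb all had H3K4me3 in untreated WT MEF (21.0 kb of peaks in their windows), in untreated Utx-KO MEF (21.4 kb) and in Utx-KO MEF with dox (30.1 kb). In WT MEF with dox 1 of 4 had it, Twist1, with 7.00 kb, as in WT and Utx-KO ESC (2.23 and 2.36 kb). Of the pluripotent cell markers Pou5f1, Sox2, Nanog and Sall4, 3 of 4 were marked in WT MEF with dox (12.4 kb), 2 of 4 in Utx-KO MEF with dox (5.91 kb), 1 in untreated Utx-KO MEF (0.418 kb), none in untreated WT MEF and all 4 in both ESC (35.3 and 33.8 kb). Nanog had no H3K4me3 peak in any fibroblast list. Treated WT cells thus carried fewer fibroblast marks than treated Utx-KO cells, and the part of this in the H3K27me3 results was not tested.

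The promoters of 4 of the genes described below are shown, since they differ in their content of CG, 3 from windows with H3K27me3 in treated Utx-KO cells and 1 from a window without. Utf1, a chromatin factor of pluripotent cells, Isl2, a LIM homeodomain factor of motor neurons, and Sox1, a factor of the neural plate, had an H3K27me3 peak in their windows in treated Utx-KO MEF. Col3a1, the gene of a fibrillar collagen made by fibroblasts, carried none in any of the 6 fibroblast and ESC lists. Each sequence is RefSeq's reference promoter of 300 bases (250 before and 50 after the start) on GRCm38.p6, 5′ to 3′, with the dinucleotide CG in capitals. CG reads the same on both strands. These positions are GRCm38 and cannot be set against the mm9 positions of the peaks.
Utf1 (chr7:139943606-139943905, plus strand): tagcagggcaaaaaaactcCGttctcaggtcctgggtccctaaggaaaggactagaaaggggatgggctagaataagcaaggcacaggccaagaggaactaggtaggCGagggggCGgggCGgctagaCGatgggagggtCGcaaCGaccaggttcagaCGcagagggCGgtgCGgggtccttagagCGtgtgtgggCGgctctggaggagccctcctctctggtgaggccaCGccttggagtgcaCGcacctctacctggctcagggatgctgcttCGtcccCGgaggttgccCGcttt
Isl2 (chr9:55540899-55541198, plus strand): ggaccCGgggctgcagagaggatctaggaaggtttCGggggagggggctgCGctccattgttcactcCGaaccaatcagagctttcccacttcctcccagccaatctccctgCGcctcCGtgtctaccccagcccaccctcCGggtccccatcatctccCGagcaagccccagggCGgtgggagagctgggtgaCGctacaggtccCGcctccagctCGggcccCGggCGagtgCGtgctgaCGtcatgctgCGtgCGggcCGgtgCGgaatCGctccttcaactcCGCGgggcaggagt
Sox1 (chr8:12395269-12395568, plus strand): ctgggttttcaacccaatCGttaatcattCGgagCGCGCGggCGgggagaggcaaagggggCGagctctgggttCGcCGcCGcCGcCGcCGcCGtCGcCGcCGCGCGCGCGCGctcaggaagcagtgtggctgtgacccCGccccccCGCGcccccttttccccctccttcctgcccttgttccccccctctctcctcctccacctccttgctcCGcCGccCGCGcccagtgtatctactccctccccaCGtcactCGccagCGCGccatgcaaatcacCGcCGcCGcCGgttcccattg
Col3a1 (chr1:45311288-45311587, plus strand): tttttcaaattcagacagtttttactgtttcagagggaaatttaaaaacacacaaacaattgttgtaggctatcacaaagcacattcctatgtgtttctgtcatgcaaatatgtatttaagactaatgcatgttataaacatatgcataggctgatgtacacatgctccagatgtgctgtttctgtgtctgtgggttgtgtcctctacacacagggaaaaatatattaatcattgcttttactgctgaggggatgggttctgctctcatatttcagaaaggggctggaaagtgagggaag

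The Utf1 promoter holds 17 CG, that of Isl2 23, that of Sox1 37 and that of Col3a1 0. Over the 32851 promoters of the table the median was 7 CG (quartiles 3 and 20). As many CG as at Utf1 were found in 31.4% of them, as many as at Isl2 in 21.5% and as many as at Sox1 in 5.58%. These are counts of letters in 300 bases and describe the promoters shown. Other genes of the windows differed from this picture. The promoters of Klf4 and Twist1 held 40 and 27 CG, and their windows had no H3K27me3 in treated Utx-KO MEF. That of Nkx2-5 held 9 CG, and its window had 12.1 kb. A relation of CG content to H3K27me3 was not tested.

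Regions found in the Utx-KO list alone made up most of the total and were wider than those in the WT list alone. Of the 4979 regions, 4063 (81.6%) were in Utx-KO MEF with dox only, 658 (13.2%) in WT MEF with dox only and 258 in both. The Utx-KO-only regions had a median width of 993 bp, the WT-only regions 616 bp and the shared regions 2568 bp. A score of at least 100 was reached by 38.5% of the Utx-KO-only regions, by 76.0% of the shared and by 1.06% of the WT-only regions. The whole WT list was much like its WT-only part, with a median width of 632 bp and 2.35% of peaks at 100 or more. A shared region takes its merged width from both lists and its score from the higher peak, and the WT peaks within them had a median score of 60.4.

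**Figure D1:**
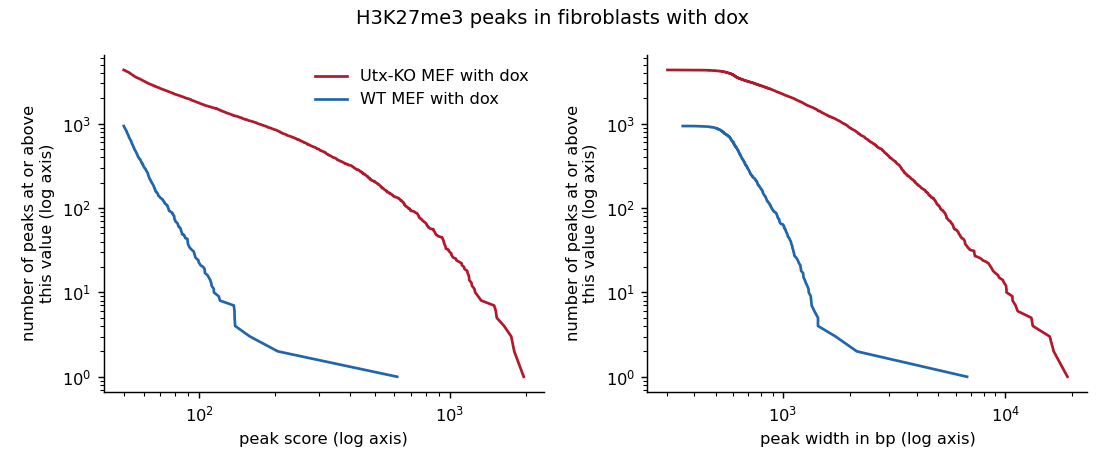
Number of H3K27me3 peaks at or above each score (left) and each width in bp (right), all axes logarithmic, for Utx-KO MEF with dox (red, 4335 peaks) and WT MEF with dox (blue, 938 peaks). The red line lies above the blue line over the whole range, and the WT list has 1 peak above a score of 206, at 616.

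Among the shared regions the Utx-KO peaks were the wider in 238 of 258. Their median width was 2464 bp in Utx-KO and 698 bp in WT, with a median ratio of 3.2 per region. These regions stood high in both lists: the median percentile of their score was 82.4 in the Utx-KO list and 68.0 in the WT list. Scores of the same region correlated weakly between the lists (Spearman's rho 0.127 over 258 regions, a description, since regions share their libraries).

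The strongest WT peaks were found again most often. Of all 938 WT peaks 29.9% (27.0 to 32.9) met a Utx-KO peak, and over quintiles of the WT score from the top the shares were 52.1%, 28.7%, 25.0%, 19.8% and 23.5%. In the other direction 6.27% of Utx-KO peaks met a WT peak, from 16.7% in the top quintile of Utx-KO scores to 1.50% in the lowest. Even when WT peaks within 5000 bp of a Utx-KO peak are counted as met, the share was 43.0%.

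An equal number of peaks sets the top of the Utx-KO list, with scores of at least 183, against the whole WT list down to a score of 50. Since width and shares with other lists went with score, the values of this top set are a description of the strongest Utx-KO peaks. The 938 highest scoring Utx-KO peaks covered 3.00 Mb at a median width of 2724 bp, against 0.643 Mb and 632 bp for the 938 WT peaks. Of these top Utx-KO peaks 84.6% met an H3K4me3 peak of treated WT MEF and 77.1% met H3K27me3 of untreated WT MEF. The corresponding shares of the WT peaks were 26.2% and 21.4%.

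The 4 widest Utx-KO domains lay over the Hox clusters, which hold the homeodomain factors that pattern the body axis. When peaks within 5000 bp were joined, Utx-KO MEF with dox had 2600 domains, 40 of them of at least 20 kb, and the widest spanned 133026 bp. WT MEF with dox had 864 domains, none of 20 kb, with a widest of 10324 bp. The untreated fibroblasts had 38 (WT) and 36 (Utx-KO) domains of that size, so the treated Utx-KO cells were close to the untreated cells in this count and the treated WT cells were not.

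The widest domain lay in the HoxC window (chr15:102739702-102872727, mm9, 41 peaks), followed by HoxD (chr2:74485131-74593124, 34 peaks), HoxA (chr6:52153654-52227163, 12 peaks) and HoxB (chr11:96111904-96176788, 20 peaks). Next came an interval at chr8:59790196-59832765, to which no gene was assigned, and a part of the HoxB window at chr11:96027399-96066985. The Gata4 (chr14:63852335-63890993) and Pax3 (chr1:78176837-78214710) windows held the domains after these. All 5 of the 100 kb windows with the most H3K27me3 in Utx-KO MEF with dox lay in or beside a Hox cluster. Across the genome 2548 such windows held H3K27me3 in either treated list, and the length was the greater in Utx-KO in 83.6% of them; 68.7% had H3K27me3 in Utx-KO and none in WT.

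Genes were examined in 32 windows placed from general knowledge of mm9, since no mm9 annotation was used here. They cover 1.42 Mb and hold 203 of the 4335 Utx-KO peaks (4.68%) and 25 of the 938 WT peaks (2.67%). With dox, 24 of 32 windows had H3K27me3 in Utx-KO MEF and 11 of 32 in WT MEF. The length was greater in Utx-KO in all 24, and 13 had none in WT, which should be read against the 83.6% and 68.7% of windows across the genome. Summed, the windows held 509 kb of H3K27me3 in Utx-KO and 17.4 kb in WT. H3K4me3 went the other way, with 406 kb in WT and 203 kb in Utx-KO, although the H3K4me3 lists as a whole covered 52.0 Mb in WT and 52.8 Mb in Utx-KO. H3K4me3 was the longer in WT in 24 windows and in Utx-KO in 6, and 21 windows had both more H3K27me3 in Utx-KO and more H3K4me3 in WT. In 11 of the 32 windows H3K4me3 was found in treated WT and not in treated Utx-KO. Over the genome, 20.8% of the 20309 merged H3K4me3 regions of the treated fibroblasts were in WT only. That share counts presence by region, and no share over the genome was taken for greater H3K4me3 length by window.

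**Figure D2:**
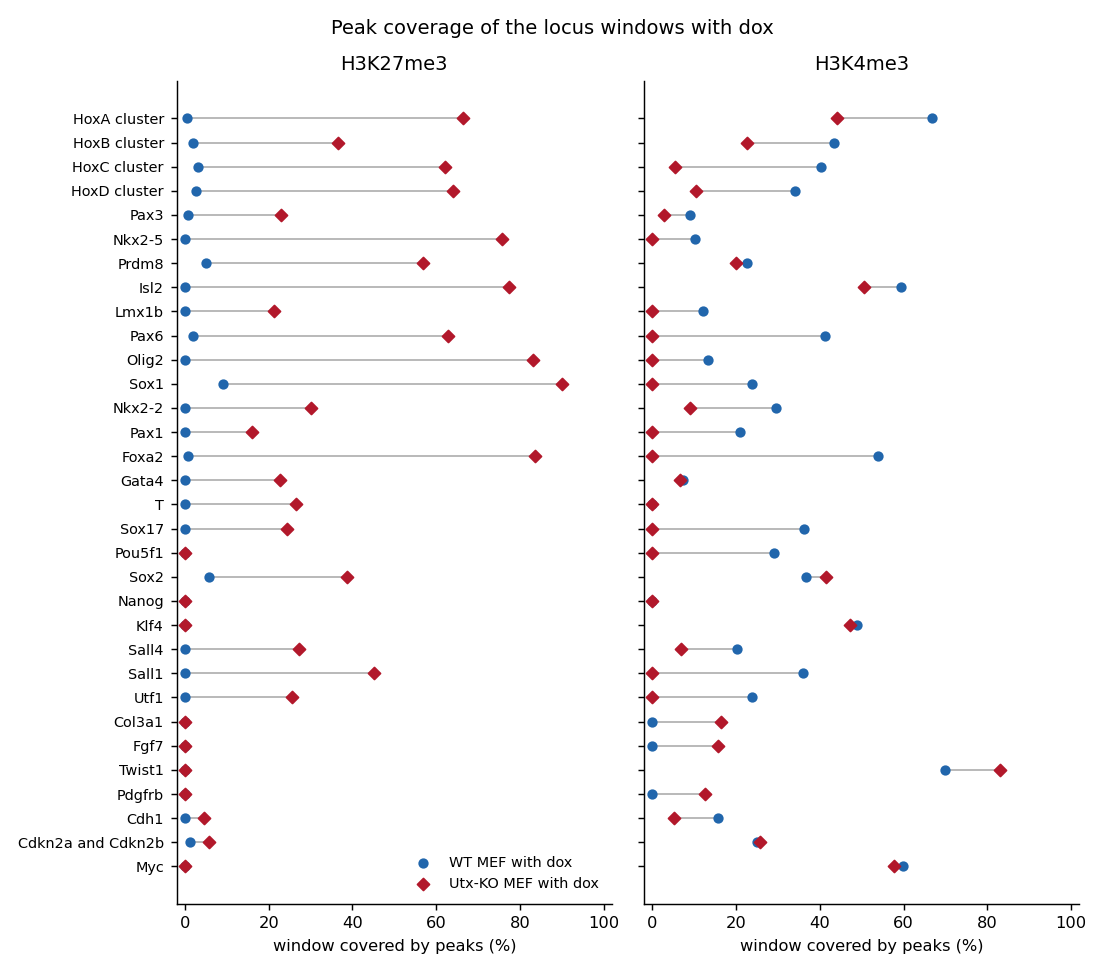
Percent of each of the 32 locus windows covered by H3K27me3 peaks (left) and H3K4me3 peaks (right) in WT MEF with dox (blue circles) and Utx-KO MEF with dox (red diamonds), 1 library each. Red lies to the right of blue for H3K27me3 in 24 windows, and blue to the right of red for H3K4me3 in 24 windows; the 4 fibroblast genes have no H3K27me3 and more H3K4me3 in Utx-KO.

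All 4 Hox clusters were covered by H3K27me3 in every fibroblast list but that of treated WT cells, where little was found. In HoxA the H3K27me3 length was 20.8 kb in untreated WT, 37.6 kb in untreated Utx-KO, 0.584 kb in treated WT and 79.7 kb in treated Utx-KO. In HoxD the same 4 lengths were 44.6, 39.0, 3.57 and 83.2 kb. HoxB had 31.1, 34.5, 3.42 and 67.8 kb, and HoxC 40.7, 40.1, 3.77 and 77.8 kb. The order was thus treated WT lowest and treated Utx-KO highest in each cluster, with both untreated lists between them. A treated WT peak of 713 bp in the widest HoxA domain lay beyond the HoxA window and is not in these lengths.

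H3K4me3 over the clusters was longest in treated WT cells. It covered 80.3 kb of HoxA in treated WT and 52.9 kb in treated Utx-KO, and 50.5 against 6.89 kb of HoxC. Part of the Utx-KO H3K27me3 lay on stretches that had H3K4me3 in WT, over the genome 51.9% of its length. In the clusters that held for 71.7% in HoxA, 62.9% in HoxB, 50.1% in HoxC and 49.9% in HoxD, so HoxA and HoxB lay above the share over the genome and HoxC and HoxD did not. H3K4me3 of Utx-KO cells themselves lay over 33.2%, 22.8%, 7.12% and 15.2%, against 36.6% over the genome. Overlap of both marks in bulk cells does not place them on the same nucleosome or in the same cell.

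Regulators of neural fate behaved alike in the 5 windows examined. Lmx1b, Pax6, Olig2, Sox1 and Nkx2-2 are transcription factors of the developing nervous system. Together they had 74.2 kb of H3K27me3 in treated Utx-KO and 2.50 kb in treated WT, and 1.62 kb of H3K4me3 in Utx-KO against 36.9 kb in WT. At Pax6, the eye and forebrain regulator, a Utx-KO H3K27me3 peak (chr2:105511443-105517992) spanned the place of a WT H3K4me3 peak (chr2:105512253-105517892). H3K4me3 had 14.4 kb in the Pax6 window in treated WT and 0 in treated Utx-KO. At Sox1, whose promoter is printed above with 37 CG, H3K27me3 was 8.98 kb in untreated WT, 8.57 kb in untreated Utx-KO, 1.81 kb in treated WT and 18 kb in treated Utx-KO, where 1 peak ran from chr8:12382322 to 12393685. Nkx2-2 was the only one of the 5 with H3K4me3 in treated Utx-KO cells.

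Mesoderm and endoderm regulators had the mark with dox mainly in the Utx-KO list. Pax1, a sclerotome factor, Foxa2, an endoderm pioneer factor, Gata4, a heart and endoderm factor, T (brachyury) and Sox17 together had 33.6 kb in Utx-KO and 0.100 kb in WT, the latter at Foxa2. The WT value is the part inside the window of a peak of 684 bp (chr2:147863416-147864099). Foxa2 had 10.0 kb of H3K27me3 in treated Utx-KO and 6.47 kb of H3K4me3 in treated WT, with no H3K4me3 in treated Utx-KO. Gata4 differed from it, since H3K4me3 was similar in both treated lists, 4.11 kb in WT and 3.65 kb in Utx-KO, beside 12.7 kb of H3K27me3 in Utx-KO. T had 4.77 kb of H3K27me3 in Utx-KO and no H3K4me3 in any fibroblast list.

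Further developmental regulators followed the Hox clusters. Pax3, a factor of neural crest and muscle precursors, Nkx2-5, a heart factor, Prdm8 and Isl2 had 62.5 kb in Utx-KO and 2.27 kb in WT. Isl2 carried a single peak of 9277 bp in Utx-KO (chr9:55385654-55394930, score 1643) and none in treated WT. In that window H3K4me3 was 7.13 kb in treated WT and 6.08 kb in treated Utx-KO, in 2 peaks each. The highest scoring WT peak (chr9:55387573-55391237, score 1498) and Utx-KO peak (chr9:55391334-55395196, score 89.3) lay side by side. The 2 H3K4me3 lists still overlapped in part, since 76.9% of the H3K27me3 peak lay under H3K4me3 of WT and 62.6% under that of Utx-KO. Nkx2-5 had 12.1 kb of H3K27me3 in Utx-KO and H3K4me3 only in WT, as 1 weak peak with a score of 52.8.

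Of 7 pluripotency genes, Sox2, Sall4, Sall1 and Utf1 had H3K27me3 in treated Utx-KO cells and Pou5f1, Nanog and Klf4 had none in either treated list. The 4 genes summed to 23.9 kb in Utx-KO and 0.585 kb in WT, and none of them had an H3K27me3 peak in WT or Utx-KO ESC. Sall4, a zinc finger factor of pluripotent cells, had 1.55 kb in untreated WT, 3.07 kb in untreated Utx-KO, 0 in treated WT and 7.10 kb in treated Utx-KO. The Utx-KO H3K27me3 peak (chr2:168588841-168595098, score 669) enclosed a WT H3K4me3 peak (chr2:168589396-168593910, score 2564), and the Utx-KO H3K4me3 peak there was narrow, 1758 bp with a score of 61.8. H3K4me3 length in the window was 5.26 kb in treated WT and 1.76 kb in treated Utx-KO.

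Sall1, a relative of Sall4, had 5.85 kb of H3K27me3 in untreated WT, 5.36 kb in untreated Utx-KO, 0 in treated WT and 10.9 kb in treated Utx-KO. Its H3K4me3 was 8.65 kb in treated WT and 0 in treated Utx-KO. At Utf1 the H3K27me3 lengths in the same order were 1.15, 2.03, 0 and 2.05 kb, so the treated Utx-KO value lay near the untreated one. The Utf1 H3K27me3 peak (chr7:147129241-147131289) and the WT H3K4me3 peak (chr7:147129161-147131059) nearly coincided, and Utx-KO cells had no H3K4me3 peak in the window. These 3 genes had H3K4me3 in both ESC, with Utf1 at 4.17 kb in WT and 3.12 kb in Utx-KO.

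Sox2 was mixed. Its H3K27me3 was 5.38 kb in untreated WT, 1.08 kb in untreated Utx-KO, 0.585 kb in treated WT and 3.88 kb in treated Utx-KO, while H3K4me3 covered 3.66 kb in treated WT and 4.15 kb in treated Utx-KO. Sox2, Pou5f1, Klf4 and Myc are also the factors that dox switches on, and signal from transgene copies and from the loci was not told apart. Pou5f1, which encodes Oct4, had 3.48 kb of H3K4me3 in treated WT and none in treated Utx-KO, with no H3K27me3 in any of the 6 fibroblast and ESC lists, so a lack of H3K4me3 there came without a H3K27me3 peak. Klf4 had H3K4me3 in all 6 of these states, 6.83 and 6.59 kb in treated WT and Utx-KO.

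Fibroblast genes had no H3K27me3 peak in any of the 4 fibroblast lists. H3K4me3 at Col3a1 was 5.34 kb in untreated WT, 5.86 kb in untreated Utx-KO, 0 in treated WT and 7.09 kb in treated Utx-KO. Fgf7, a secreted growth factor of mesenchyme, had 6.82, 5.84, 0 and 9.03 kb in the same order. At Col3a1 and Fgf7 treated WT cells thus had neither an H3K4me3 nor an H3K27me3 peak. The treated WT H3K27me3 list held 938 peaks, 2.35% of them with a score of 100 or more. A missing peak in it does not show that the mark was absent. Cdh1, the epithelial cadherin gene, had 3.28 kb of H3K27me3 in treated Utx-KO and 0 in treated WT, with H3K4me3 of 3.87 and 11.6 kb. All of the Utx-KO H3K27me3 length at Cdh1 lay under H3K4me3 of both treated lists. The Cdkn2a and Cdkn2b window, which encodes cell cycle inhibitors that hinder reprogramming, had 3.18 kb in Utx-KO and 0.630 kb in WT, from peaks with scores of at most 67.0. Myc had no H3K27me3 in either.

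All 24 windows with H3K27me3 in treated Utx-KO cells had it in both untreated lists too. Across the genome, 941 of the 2160 windows of 100 kb with H3K27me3 in treated Utx-KO cells did so. In each of the 24 the length was greater with dox than without in the Utx-KO lists and smaller with dox than without in the WT lists. Of the 941 windows of 100 kb across the genome with H3K27me3 in the same 3 lists, 81.1% were longer with dox in Utx-KO. With dox in WT 97.8% were shorter, and 79.0% showed both. The direction at the loci was thus that of most windows chosen in this way. Both sets were kept for a mark in treated Utx-KO and needed none in treated WT, which favours this direction. Without that choice, 19.2% of the regions marked in both untreated lists had no H3K27me3 in either treated list. The untreated WT and Utx-KO lists covered 4.59 and 4.2 Mb in all, and the treated lists 0.643 and 6.41 Mb.

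Across the genome the same origin was followed from the 1427 regions marked in both untreated WT and untreated Utx-KO MEF. With dox, 70.1% of them (67.7 to 72.5) had H3K27me3 in Utx-KO only, 9.95% in both, 0.701% in WT only and 19.2% in neither. Of the 1427, 64.0% (61.5 to 66.4) had H3K4me3 in treated WT and 36.4% (33.9 to 38.9) in treated Utx-KO. H3K4me3 was in WT and not in Utx-KO at 410 of these regions and the reverse held at 16. Among the 274 regions without H3K27me3 in either treated list the corresponding shares were lower and nearer to each other, 32.8% and 23.0%. The 1001 with it in treated Utx-KO only had 70.6% and 40.1%. The gap was widest at the 142 with it in both treated lists, 78.2% and 36.6%. Median widths of these 3 groups were 1150, 1515 and 2112 bp, and wider regions meet other peaks more readily.

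**Figure D3:**
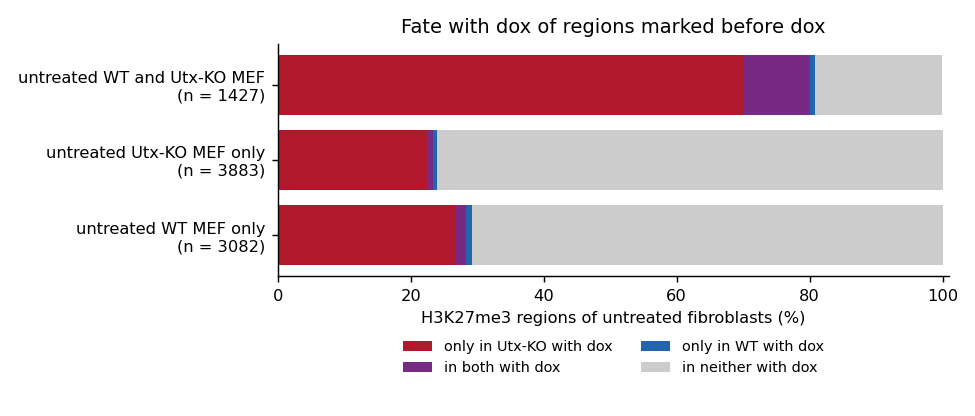
Share of H3K27me3 regions of untreated fibroblasts (horizontal axis, percent) by where H3K27me3 was found with dox, for regions marked in both untreated lists (n = 1427), in untreated Utx-KO only (n = 3883) and in untreated WT only (n = 3082). The Utx-KO-only share with dox (red) is 70.1%, 22.4% and 26.8% in that order.

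Regions marked in 1 untreated list only were mostly unmarked with dox. No H3K27me3 was found in either treated list at 76.1% of the 3883 regions of untreated Utx-KO MEF alone and at 70.8% of the 3082 of untreated WT MEF alone. Their Utx-KO-only shares with dox were 22.4% (21.1 to 23.7) and 26.8% (25.2 to 28.4), so untreated WT regions had the mark in treated Utx-KO cells at least as often as untreated Utx-KO regions did. Regions of both untreated lists were also wider, with a median of 1443 bp against 635 and 810 bp.

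Read from the treated side, the 4063 Utx-KO-only regions had a mixed history. H3K27me3 was present in both untreated fibroblast lists at 970 of them (23.9%), in untreated WT only at 597, in untreated Utx-KO only at 524 and in neither at 1972 (48.5%). Of the 970, H3K4me3 with dox was found at 68.7% in WT and 43.1% in Utx-KO, and 256 had it in WT alone against 8 in Utx-KO alone. Of the 1972 without an untreated mark the shares were 47.1% and 38.7%. The gap between genotypes in H3K4me3 was thus wider at regions marked with H3K27me3 in both untreated lists, a difference that was not tested. These 970 regions were also wider and higher in score than the 1972. Their medians were 1894 bp and a score of 180, against 752 bp and 63.4. Untreated mark, width and score were not separated.

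H3K27me3 in Utx-KO ESC was found at most of these regions. It met 78.2% (76.9 to 79.5) of the Utx-KO-only regions, 93.4% (89.7 to 95.8) of the shared and 38.1% (34.5 to 41.9) of the WT-only regions, in a list that covered 79.8 Mb. In WT ESC, with 6.20 Mb, the shares were 29.5%, 60.9% and 6.69%. Counting the 4 other H3K27me3 lists of fibroblasts and ESC together, 14.7% of Utx-KO-only regions were in none of them and 10.7% in all 4. Of the WT-only regions 58.5% were in none and 0.304% in all 4, and of the shared regions 1.16% and 40.7%. The WT-only class had the lowest share in each of the 4 lists.

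**Figure D4:**
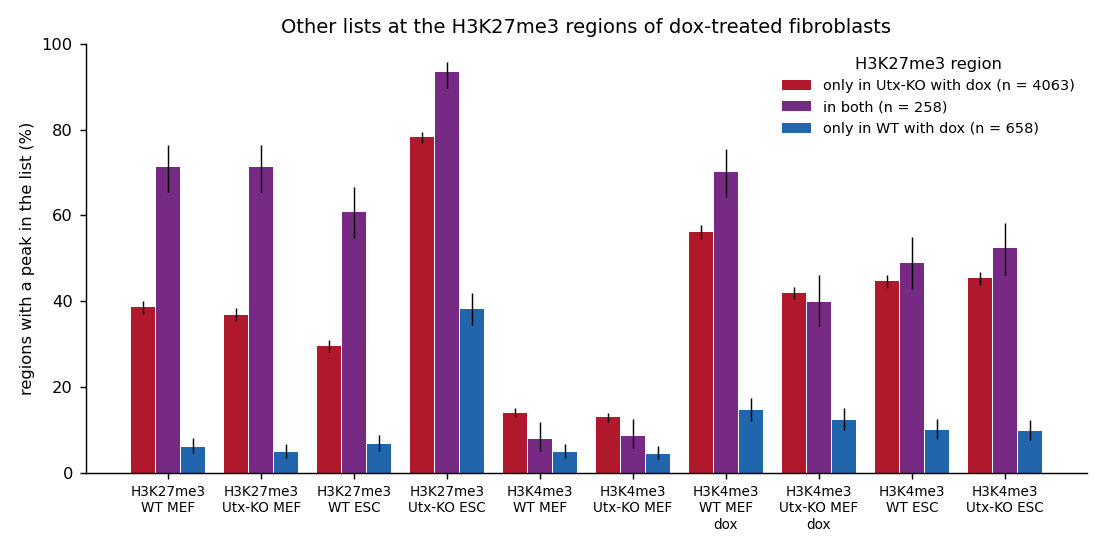
Percent of H3K27me3 regions (vertical axis) with a peak in each of 10 other lists, for regions only in Utx-KO with dox (red, n = 4063), in both (purple, n = 258) and only in WT with dox (blue, n = 658). Lines are Wilson 95% intervals over regions; the blue bar is the lowest in all 10 lists, and H3K4me3 of treated WT MEF reaches 70.2% of the shared and 14.6% of the WT-only regions.

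The chromatin state of the site in WT ESC went with its H3K4me3 in treated fibroblasts. Of the Utx-KO-only regions, 1171 had H3K4me3 without H3K27me3 in WT ESC, and 90.9% of these had H3K4me3 in treated WT MEF and 74.1% in treated Utx-KO MEF. The 640 with both marks in WT ESC had 93.9% and 76.9%. The 558 with H3K27me3 alone had 49.5% and 29.4%, and the 1694 with neither mark had 20.1% and 10.6%. The WT share was the higher of the pair in all 4 classes.

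H3K4me3 of both treated lists together split the 4063 Utx-KO-only regions into 4 groups. H3K4me3 was in WT alone at 646 (15.9%), in Utx-KO alone at 67 (1.65%), in both at 1636 (40.3%) and in neither at 1714 (42.2%). A higher WT share was not particular to this class. H3K4me3 of treated WT and treated Utx-KO met 56.2% and 41.9% of the Utx-KO-only, 70.2% and 39.9% of the shared and 14.6% and 12.3% of the WT-only regions. The whole H3K4me3 lists held 19689 peaks in treated WT and 16157 in treated Utx-KO. By length, H3K4me3 of treated WT and treated Utx-KO cells lay over the 51.9% and 36.6% of Utx-KO H3K27me3 given above. The H3K4me3 of untreated cells lay over 6.57% (WT) and 4.82% (Utx-KO), so most of the overlap was with H3K4me3 found only in the treated lists. The untreated H3K4me3 lists were shorter in all, 23.6 Mb (WT) and 22.3 Mb (Utx-KO) against 52.0 and 52.8 Mb with dox. Their peaks were also narrower, with medians of 1118 and 832 bp against 2379 and 3063 bp. A gain of the mark and a difference in peak calling were not told apart.

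These shares were higher at higher scores of the region. From the lowest to the highest quintile of Utx-KO-only regions, H3K4me3 in treated WT went from 34.0% to 84.3% and in treated Utx-KO from 27.8% to 57.9%. H3K27me3 in untreated WT MEF went from 16.4% to 74.4%, in WT ESC from 13.8% to 56.8% and in Utx-KO ESC from 60.2% to 93.0%. Median width went from 614 to 2594 bp over the same quintiles, and wider regions meet other peaks more readily. Score, width and these shares were not separated.

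**Figure D5:**
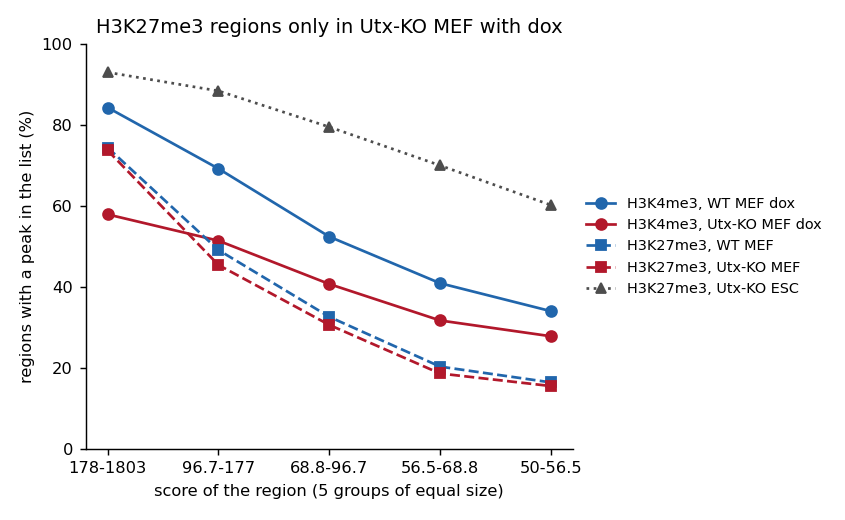
Percent of the 4063 Utx-KO-only H3K27me3 regions (vertical axis) with a peak in 5 other lists, by quintile of the region score (horizontal axis, highest scores on the left). All 5 lines are highest at the left, and H3K4me3 in treated WT (84.3% in the top quintile) lies above H3K4me3 in treated Utx-KO (57.9%) in each quintile.

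Seen from H3K4me3, a larger share of treated WT peaks lacked a counterpart in Utx-KO where Utx-KO cells had H3K27me3. No H3K4me3 was found in treated Utx-KO at 30.0% (28.1 to 32.0) of the 2108 WT peaks with Utx-KO H3K27me3 and at 20.4% (19.8 to 21.0) of the 17581 without. In the highest quintile of WT H3K4me3 scores these shares were 4.29% and 0.263%, in the next 4.33% and 0.728%, in the middle quintile 9.03% and 3.56%, and in the one below 38.3% and 28.1%. In the lowest quintile they were level, 71.3% and 71.4%.

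UTX itself, mapped in WT cells, was seldom found at the regions. In treated WT MEF a UTX peak met 16 of the 4063 Utx-KO-only regions (0.394%), 0 of the 258 shared and 7 of the 658 WT-only regions (1.06%). In WT ESC it met 50, 7 and 13 regions, and in untreated WT MEF 0 of the Utx-KO-only regions. Few of the 3540 UTX peaks with dox scored 100 or more, 0.452%, and UTX that gave no peak in this weak list was not detectable.

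Of the 10 highest scoring Utx-KO-only regions, 5 lay in windows of named loci. The first was in HoxA (chr6:52174014-52181269, score 1803), then came Pax3 (chr1:78188749-78197556, 1754) and Isl2, and 2 others lay in the windows of Gata4 (chr14:63861128-63868003, 1223) and HoxB (chr11:96146233-96154948, 1218). The remaining 5, to which no gene was assigned, were chr11:84332344-84342462, chr5:33772338-33778160, chr1:186540281-186545704, chr19:45299378-45307882 and chr13:55927094-55934681. All 10 had H3K4me3 in treated WT MEF, and 9 of 10 had H3K27me3 in all 4 other fibroblast and ESC lists, while over all 4063 Utx-KO-only regions these shares were 56.2% and 10.7%. The HoxB region lacked it in Utx-KO ESC and was the only one of the 10 with a UTX peak in treated WT MEF.

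The 5 highest scoring shared regions were ranked by a score that in each of them came from the Utx-KO list, so their higher Utx-KO score follows from the choice. The first, chr13:48752046-48765407, scored 1967 in Utx-KO and 57.6 in WT, and the second, chr7:56887385-56895999, 1536 and 52.8. The third was at Sox1, with 1523 and 61.3. After it came chr19:43683731-43693806 (1332 and 84.6) and chr8:123595997-123602144 (1260 and 68.4). In the WT list, 2 of these 5 scores lay in the top quintile, which began at 65.5.

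The leading WT-only region stood apart from the rest of its class in width and score. At chr17:39979507-39986239 it was 6733 bp wide with a score of 616. It met UTX and H3K4me3 peaks of treated WT MEF and a UTX peak of WT ESC. No H3K27me3 peak of the 4 other fibroblast and ESC lists met it. The WT-only region next in score shared these overlaps, and 58.5% of all WT-only regions were in none of those 4 lists. Next were chr16:11143991-11144752 (score 206), chr16:57391370-57391939 (159), chr2:5300209-5300563 (121) and chr9:65005641-65006743 (114). Below these, few WT-only regions reached a score of 100, since 1.06% of the 658 did.

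By chromosome the Utx-KO-only share of regions ranged from 74.2% on chromosome 16 to 86.1% on chromosome 8 among the autosomes, and was 90.0% on X. The X chromosome held 54 Utx-KO-only regions and 6 WT-only regions with dox. Without dox it held 321 regions in Utx-KO only and 26 in WT only. Of all H3K27me3 peaks, X held 5.78% in untreated Utx-KO MEF, 0.735% in untreated WT MEF, 1.25% in treated Utx-KO MEF and 0.640% in treated WT MEF. Utx itself lies on X. The sex of the WT fibroblasts is not given, so on X a difference of sex and one of genotype cannot be told apart. Chromosome Y held 7 H3K4me3 peaks in untreated and 4 in treated WT MEF, against 0 and 2 in the male Utx-KO MEF. Sex was not tested from these few peaks.

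The pairs of Utx-KO and WT cells in other states differed from the treated pair in both counts and overlap. The log2 ratio of Utx-KO-only to WT-only regions was 0.33 (0.27 to 0.40) in untreated MEF and 4.75 (4.66 to 4.83) in ESC, on either side of 2.62 (2.51 to 2.75) in treated MEF. Of the WT peaks, a Utx-KO peak met 35.3% in untreated MEF, 29.9% in treated MEF and 78.6% in ESC. The aberrant iPS clones had H3K27me3 at 7 and 9 of the 4063 Utx-KO-only regions of treated MEF, in lists of 135 and 737 peaks, and H3K4me3 at 53.8% and 62.0%.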

How the data were processed

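Chromatin immunoprecipitation and sequencing of H3K27me3, H3K4me3 and UTX was deposited as 1 peak list per sample, called per sample since each has its own list. The deposited values are the position of each peak and a score, and, per the submitters' processing notes, the tools were MACS 1.4.1, Bowtie 0.12.5 and CASAVA 1.8.2 with build mm9. Their roles, settings and controls are not given in the sources used here. Read totals and whole-cell extracts were not analysed here, so depth and the precision it gives are unknown.

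The members and lists were chosen with earlier results of these data known. Positions are 1-based, and 1 mitochondrial peak was left out. A region in 1 list only met no peak of the other by at least 1 bp. The log2 ratio is of counts plus 1 with an exact (Clopper-Pearson) interval, and shares have Wilson intervals. Regions were named by rule: the 10 highest scoring in Utx-KO only, 5 in WT only, 5 in both, 5 windows of 100 kb, and the 32 loci. The 29 single genes of the loci were all found in RefSeq's GRCm38.p6 table, which gave promoter sequences but no peak positions. The alternatives were a score of at least 100, 50% overlap, equal numbers, autosomes only and joining over 5000 bp. Overlap counts were recovered in 10 of 10 simulated cases and equalled those of bedtools 2.31.1 for 38 of 38 pairs of lists. Work was done in Python 3.11.15 with scipy 1.17.1, pandas 2.3.3, numpy 2.4.6 and, for plots, matplotlib 3.10.9.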

Additional observations from a re-analysis of the deposited data

Results flagged for a closer look

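The covered length of H3K27me3 in Utx-KO relative to WT fibroblasts had opposite directions without and with dox. The log2 ratio was -0.13 without dox (4.2 Mb in Utx-KO and 4.59 Mb in WT) and 3.32 with dox (6.41 and 0.643 Mb). Each state had 1 library, so the difference between these ratios was not tested. A length summed over peaks moves with how many were called, and the peaks were also wider in treated Utx-KO cells, where the median width was 1027 bp against 632 bp in treated WT, 651 bp in untreated Utx-KO and 831 bp in untreated WT.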

How the results depend on the processing

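The log2 ratio became negative under no alternative, and the shares have no direction that could change. For the log2 ratio and the shares of Utx-KO-only regions with another mark, 17 of 35 values moved by less than their interval and 18 by more. With a score of at least 100 the log2 ratio was 7.19, and the shares with H3K27me3 in untreated Utx-KO MEF, untreated WT MEF and Utx-KO ESC were 62.6%, 64.2% and 91.2%, with H3K4me3 in treated WT and Utx-KO 77.8% and 54.0%. With 938 top peaks from each list they were, in the same order, 0.04, 74.6%, 74.7%, 93.1%, 84.8% and 58.2%. An equal number of peaks fixes the ratio near 0 by construction. A score of at least 100 leaves 22 of the WT and 1759 of the Utx-KO peaks. The ratio at that cut thus follows from how many peaks of each list reach it. With peaks joined over 5000 bp the ratio and shares were, in the same order, 1.95, 33.7%, 33.7%, 74.6%, 65.2% and 53.0%. The share with UTX stayed within its interval under each alternative, and all results did so with the 50% overlap and on autosomes only, where the log2 ratio was 2.56 and 2.62. The cause of the shifts with score was not tested. Depth limits every absence of a peak, above all in the treated WT list.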
